A study of Mus musculus with 10 samples.

Results

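Dnmt3a2 carrying the WWD mutation was compared with wild-type Dnmt3a2 (WT) for its occupancy over every region of the 3 deposited tables, 85618 regions in all: 32293 named after H3K4me3, 29023 after H3K4me2 and 24302 after H3K4me1. The comparison takes in all of these regions, and no region was chosen by its values. Both proteins carry a FLAG tag and were expressed at passages 7 to 10 in J1 Dnmt TKO cells, mouse embryonic stem cells whose own Dnmt genes are inactivated. They were profiled by FLAG ChIP-seq, in which sequencing reads mark where a protein sits on chromatin. Each construct has 2 listed samples, one labelled 1 and one labelled bulk, a word the labels do not explain. The tables give 1 Dnmt3a2 column per construct, so each column is treated here as 1 library and no test over samples could be made. Another construct, labelled R, was profiled alike and is given as a further value beside some results. H3K4me3 ChIP-seq of WT cells and of WWD cells gave 1 library each.

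Dnmt3a2 is the short isoform of Dnmt3a, an enzyme that puts methyl groups on previously unmethylated DNA, and it is the main Dnmt3a form in embryonic stem cells. Dnmt3a reads histones through its ADD domain, which binds the tail of histone H3 when lysine 4 is unmethylated and binds poorly when that lysine is methylated. H3K4me3 marks active promoters and CpG islands, H3K4me1 is typical of enhancers, and H3K4me2 is found at both. Per the series title, a histone-recognition domain of Dnmt3a was engineered. Which residues WWD changes is not stated in the labels. The comparison therefore addresses whether a Dnmt3a2 with an altered histone reader is spread differently over chromatin classed by H3K4 methylation.

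The WWD library held 17259400 reads and the WT library 24015095. Values are whole reads per region, or reads per 10000000 of the library's total. Intervals are 95% intervals for counting error only (exact binomial for shares, exact conditional binomial for ratios). They treat reads as independent, although reads came in clumps and libraries were amplified over 18 PCR cycles, so intervals of read ratios are too narrow. The input sample was not analysed here, and all values include background. In the H3K4me3 table, 91.9% of regions held an H3K4me3 read in WT cells and 88.1% in WWD cells. No H3K4me1 or H3K4me2 sample is listed, and 2 columns of no listed sample were not used, so the names of those tables were not checked. No region of one table lay within 100 bp, centre to centre, of a region of another, so the 3 tables share no region. Regions of different tables can still be neighbours. The smallest distance was 101 bp, and 12447 autosomal H3K4me2 regions lay up to 500 bp from an H3K4me3 region.

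WWD held more reads than WT in all 3 tables, although its library was the smaller. At H3K4me3 regions the WWD library had 27230 reads and the WT library 13523, at H3K4me2 regions 27033 and 20664, and at H3K4me1 regions 35782 and 27820. Scaled to library totals, WWD was 2.80 times WT at H3K4me3 regions (interval 2.74 to 2.86), 1.82 times at H3K4me2 regions (1.79 to 1.85) and 1.79 times at H3K4me1 regions (1.76 to 1.82). The regions of the H3K4me3 table took up 0.158% of all WWD reads and 0.0563% of all WT reads. At H3K4me1 regions these shares were 0.207% and 0.116%. At H3K4me2 regions they were 0.157% and 0.0860%. WT reads per region thus became fewer from H3K4me1 to H3K4me2 to H3K4me3 regions, with means of 0.477, 0.296 and 0.174 reads per 10000000, while WWD reads per region were 0.853, 0.540 and 0.489.

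The excess of WWD lay mainly in the number of regions reached. A read was present at 8220 H3K4me3 regions in WWD (25.5%, interval 24.98 to 25.9) and at 3193 in WT (9.89%, 9.56 to 10.2). At H3K4me2 regions the shares were 29.5% and 16.1%, and at H3K4me1 regions 39.6% and 22.7%. In the same order of tables the R library had a read at 9.79%, 15.5% and 18.6% of regions, nearer to WT than to WWD. Scaled to library totals, regions that had any read held on average 1.92 reads per 10000000 in WWD and 1.76 in WT in the H3K4me3 table, 1.83 and 1.84 in the H3K4me2 table and 2.15 and 2.10 in the H3K4me1 table. Unscaled, these were 3.31 and 4.24 reads, 3.15 and 4.42, and 3.72 and 5.03. The level at a reached region was thus close between the libraries, while the number of reached regions was not.

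Shares of regions with many reads depend on depth, since the WT library was the larger. Unscaled, 10 or more reads were found at 0.722% of H3K4me3 regions in WWD and 0.684% in WT, and the WWD and WT shares of H3K4me2 regions were 0.761% (0.665 to 0.868) and 1.21% (1.09 to 1.35). The shares that WT would have on average at the depth of WWD were computed after the data were seen, by keeping each WT read with a probability of the WWD total over the WT total. They were 0.189% with 10 or more reads at H3K4me3 regions, 0.437% at H3K4me2 regions and 0.806% at H3K4me1 regions, where WWD had 1.90%. With at least 1 read they were 9.09%, 14.8% and 21.2%. At equal depth WWD therefore had the larger share at each of these minimums (1, 2, 3, 5 and 10 reads) in each table. The number of distinct fragments behind each library is not known, and the part of read duplication in these differences was not tested.

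**Figure D1:**
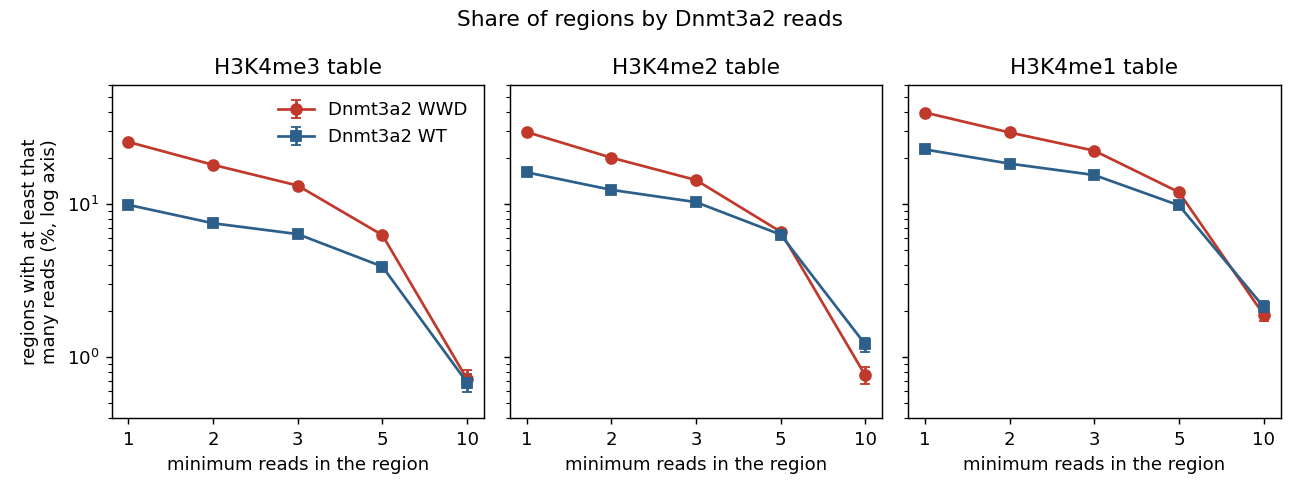
Share of regions (%, log axis) with at least 1, 2, 3, 5 or 10 unscaled Dnmt3a2 reads in the WWD and WT libraries, 1 panel per table, with exact 95% binomial intervals as bars. The curves are farthest apart at 1 read in the H3K4me3 panel (25.5% against 9.89%) and meet at 10 reads (0.722% against 0.684%), where WT at the depth of WWD would have 0.189%.

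Reads were more concentrated in WT, which also had fewer regions with a read. The top 322 regions of the H3K4me3 table, 1% of it in each library's own order, held 13.3% of the WWD reads and 26.1% of the WT reads of that table. At H3K4me2 regions the top 1% held 12.2% and 19.9%, and at H3K4me1 regions 9.85% and 19.96%.

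Most regions with any read were reached in 1 library and not in the other. With a read at 25.5% of H3K4me3 regions in WWD and 9.89% in WT, unrelated libraries would also share few regions. The small overlap alone therefore does not show that the libraries used different sites. Of the H3K4me3 regions, 7203 held reads in WWD only, 2176 in WT only, 1017 in both and 21897 (67.8%) in neither. There were 3.31 WWD-only regions for each WT-only region, against 2.27 in the H3K4me2 table and 2.26 in the H3K4me1 table. Where WT had a read, WWD also had one at 31.9% of H3K4me3 regions (30.2 to 33.5), and where WT had none, at 24.8% (24.3 to 25.3). At H3K4me2 regions these values were 34.6% and 28.6%. At H3K4me1 regions they were closer, 41.4% (40.1 to 42.7) and 39.1% (38.4 to 39.8). WWD thus reached sites with a WT read more often than sites without one, though most WWD sites held no WT read. By region, 5242 of the 32293 H3K4me3 regions (16.2%) were at least 2-fold higher in WWD, and 1492 (4.62%) at least 2-fold lower, with 1 read per 10000000 added to both values. Of the H3K4me2 regions, 4924 (17%) were higher and 2184 (7.53%) lower, and of the H3K4me1 regions, 5777 (23.8%) were higher and 2483 (10.2%) lower. With this added read, 2 reads against 0 count as a difference in WWD and 3 against 0 in WT, owing to the library sizes. These are all regions of each table, so the percentages are their own background, and no replicate stands behind any single region. When regions were limited to those reached in 2 or more of the WWD, WT and R libraries, WWD over WT was 1.71 at H3K4me3 regions, 1.21 at H3K4me2 regions and 1.24 at H3K4me1 regions, a choice that by construction leaves out regions reached in a single library. The counts of higher and lower H3K4me3 regions were then 807 and 264.

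**Figure D2:**
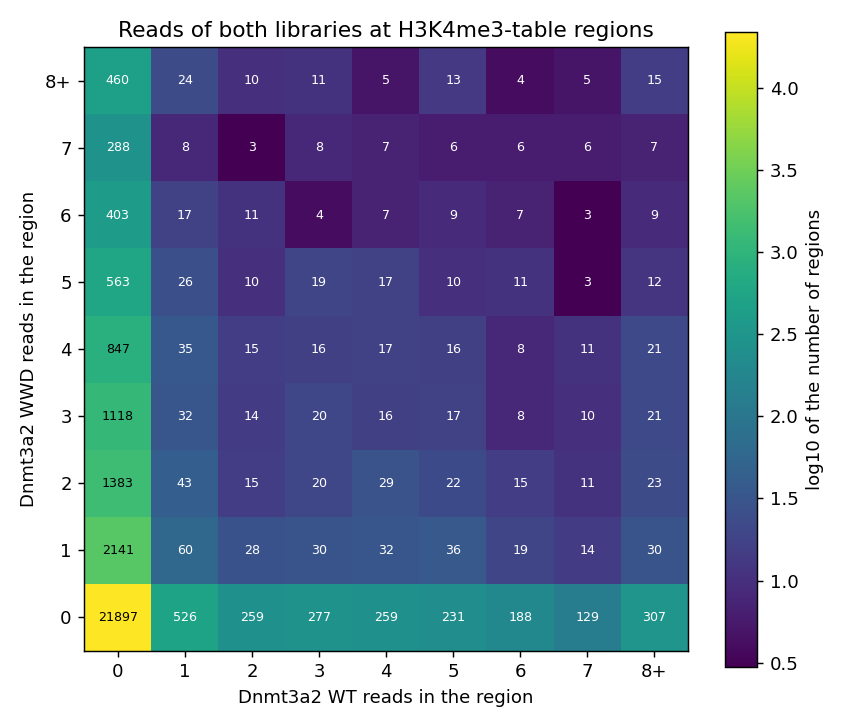
Number of H3K4me3-table regions for each pair of read counts, with WT reads on the horizontal axis and WWD reads on the vertical axis (8+ stands for 8 or more; colour is log10 of the number). The first column (reads in WWD only, 7203 regions) and the bottom row (reads in WT only, 2176 regions) hold most regions with any read, and the inner squares together hold 1017.

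H3K4me3 level separated the 2 libraries further. Regions of the H3K4me3 table were classed by the mean H3K4me3 level of WT and WWD cells, in reads per 10000000. In WT, 14.9% of the 1601 regions without any H3K4me3 read held a Dnmt3a2 read (13.2 to 16.7), against 7.53% of the 16750 regions above 20 (7.14 to 7.94). WWD had a read at 30.1% of the former (27.9 to 32.4) and 24.0% of the latter (23.4 to 24.7). The share above 20 was thus 0.507 times the share without H3K4me3 in WT and 0.797 times in WWD. For R this value was 0.646.

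The ratio of WWD to WT differed by class in the same way. It was 2.24 without H3K4me3 reads (2.08 to 2.42), 2.46 above 0 and up to 1 (2.21 to 2.74), 2.18 from 1 to 5 (2.08 to 2.30) and 2.55 from 5 to 20 (2.46 to 2.65). Above 20 it was 3.45 (3.34 to 3.57). A finer division of this last class, added after the data were seen, gave 3.16 from 20 to 40 (3.01 to 3.32), 3.53 from 40 to 80 (3.35 to 3.72) and 4.14 from 80 to 160 (3.82 to 4.49). The classes up to 20 did not follow a clear order, as the interval from 5 to 20 overlapped that of the class up to 1. With levels from WWD cells alone, the ratio was 2.69 from 1 to 5 and 2.43 from 5 to 20. The class above 20 had the highest ratio whether levels came from both cell lines, WT cells (3.36) or WWD cells (3.44). Across those finer classes the WT share of regions with a read stayed between 7.21% and 7.67%, while the WWD share was 23.0%, 23.6% and 26.9%. The 263 regions above 160 stood apart, with a WWD read at 30.0% of regions (24.6 to 35.97), a WT read at 12.9% (9.12 to 17.6) and a ratio of 3.08 (2.55 to 3.74).

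**Figure D3:**
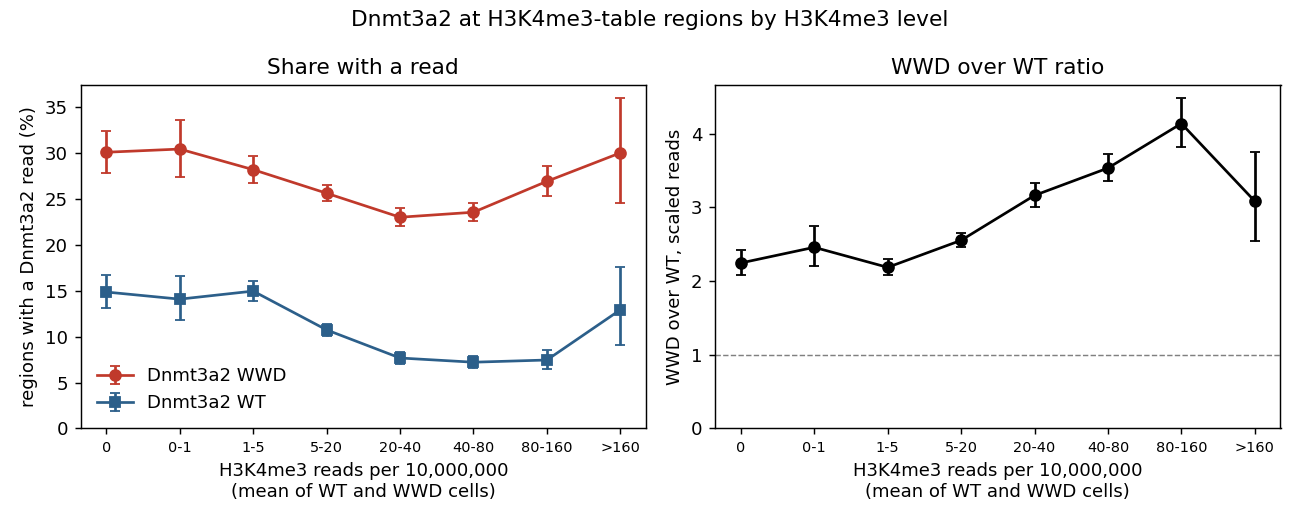
H3K4me3-table regions by H3K4me3 level (horizontal axes, reads per 10,000,000, mean of WT and WWD cells). Left, share of regions with a Dnmt3a2 read (%) in each library with exact 95% binomial intervals; right, WWD over WT ratio of scaled reads with counting intervals, which goes from 2.24 at regions without H3K4me3 reads to 4.14 at 80 to 160 and is 3.08 above 160.

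Regions with a Dnmt3a2 read had less H3K4me3 by median, more so for WT reads. Median H3K4me3 (mean of both cell lines) was 22.9 reads per 10000000 at regions with no Dnmt3a2 read in either library, 20.6 at WWD-only regions, 14.7 at WT-only regions and 11.2 at regions with reads in both. Regions with 6 or more WWD reads had a median of 17.1, and those with 6 or more WT reads 13.7.

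H3K4me3 itself was set beside Dnmt3a2 reads, as the ratio of WWD to WT cells. The median log2 ratio of H3K4me3 in WWD over WT cells was -0.16 at regions without Dnmt3a2 reads, -0.12 at WWD-only regions and -0.11 at WT-only regions. At the 1017 regions with reads in both libraries it was 0. Over all 32293 regions it was -0.15. Among regions above 20 reads of H3K4me3, where small counts weigh less, these values were -0.17, -0.14 and -0.15, and -0.12 at regions with reads in both. Regions with 6 or more WWD reads had a median of -0.05, and -0.11 when limited to those above 20 reads of H3K4me3. Regions where H3K4me3 was at least 2-fold lower in WWD cells (6850) had a WWD over WT Dnmt3a2 ratio of 2.51 (2.41 to 2.62), and regions where it was at least 2-fold higher (3832) had 2.43 (2.30 to 2.56). The 21611 regions in between had 3.02 (2.94 to 3.10). Both outer classes were weak in H3K4me3, with medians of 9.69 and 9.60 reads per 10000000 against 30.7 in the middle class. With 4 in place of 1 read per 10000000 added to the H3K4me3 levels, the ratio was 2.79 where H3K4me3 was lower, 2.40 where it was higher and 2.87 in between. The value was thus larger in the lower class than in the higher class under both amounts, by a margin that depended on the amount. With 1 read added the intervals of these classes overlapped, so no direction is read from that difference.

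Sites outside the H3K4me3 table showed the same order by nearness to it. Autosomal regions of the other tables were classed by the distance between their centre and that of the nearest H3K4me3 region, a division made after the data were seen. H3K4me2 regions up to 500 bp away (12447) held a WT read at 11.8% (11.2 to 12.4), and those at 5 to 20 kb (4965) at 21.4% (20.3 to 22.6), so that the near share was 0.550 times the far one. In WWD these shares were 25.4% (24.7 to 26.2) and 35.1% (33.7 to 36.4), a value of 0.725. In R the value was 0.601. The WWD share over the WT share was 2.16 up to 500 bp, 1.82 from 500 bp to 1 kb, 1.71 from 1 to 5 kb, 1.64 from 5 to 20 kb and 1.60 from 20 to 100 kb. Beyond 100 kb (1320 regions) it was 1.86, and the decline with distance ended there.

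H3K4me1 regions varied less with distance. WWD held a read at between 36.9% and 40.7% of them in the 6 distance classes, whereas WT ranged from 17.4% up to 500 bp (14.6 to 20.5) to 24.5% at 5 to 20 kb (23.5 to 25.5). The near share over the share at 5 to 20 kb was 0.905 in WWD, 0.710 in WT and 0.855 in R. The WWD share over the WT share was 2.12 in the nearest class, 1.66 at 5 to 20 kb and 1.93 beyond 100 kb. By reads the last class had a ratio of 1.42, and 2.15 without 1 region that held 1246 WT reads.

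**Figure D4:**
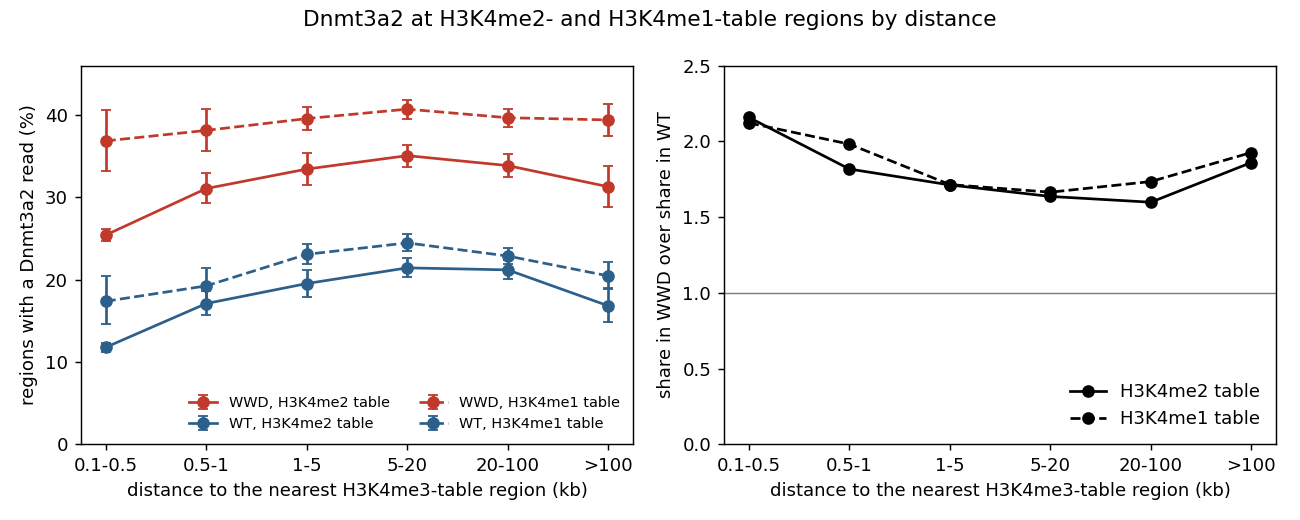
Autosomal regions of the H3K4me2 table (solid) and H3K4me1 table (dashed) by distance to the nearest H3K4me3-table region (kb). Left, share with a Dnmt3a2 read (%) in WWD and WT with exact 95% binomial intervals; right, WWD share over WT share, which in the H3K4me2 table is 2.16 nearest to H3K4me3 regions and 1.60 at 20 to 100 kb.

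The WWD excess was spread over the autosomes. Ratios below 1 were found at H3K4me1 regions of chromosome X (0.669) and chromosome Y (0.245) and at H3K4me2 regions of mitochondrial DNA (0.689). The ratio of scaled reads was above 1 on each of the 19 autosomes in each table. At H3K4me3 regions it ranged from 2.43 to 3.47 over autosomes (median 2.74, SD 0.280), at H3K4me2 regions from 1.44 to 2.21 (median 1.86, SD 0.195) and at H3K4me1 regions from 1.04 to 2.40 (median 1.92, SD 0.289). The lowest autosome at H3K4me3 regions thus lay above the highest one at H3K4me2 and at H3K4me1 regions. On 19 of 19 autosomes the ratio was higher at H3K4me3 than at H3K4me2 regions, and likewise higher at H3K4me3 than at H3K4me1 regions. Autosomes share their library, so this shows an even spread and does not stand in for replicates. H3K4me2 and H3K4me1 regions had no such order, the ratio being higher at H3K4me2 regions on 7 of 19. The value of 1.04 belonged to chromosome 9, where 1 region held 1246 of the 2631 WT reads, and without it the ratio there was 1.93.

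Windows of 5 Mb gave the same picture at a finer grain. Among windows with at least 10 regions, WWD had the higher scaled reads in 442 of 468 at H3K4me3 regions (94.4%), 399 of 459 at H3K4me2 regions (86.9%) and 399 of 432 at H3K4me1 regions (92.4%). More regions with a read in WT than in WWD were found in 12, 26 and 10 windows. The median window ratio was 3.04, 1.86 and 2.03. Windows varied widely, with 10th to 90th percentiles of 1.39 to 11.5, 0.910 to 4.36 and 1.07 to 4.40.

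**Figure D5:**
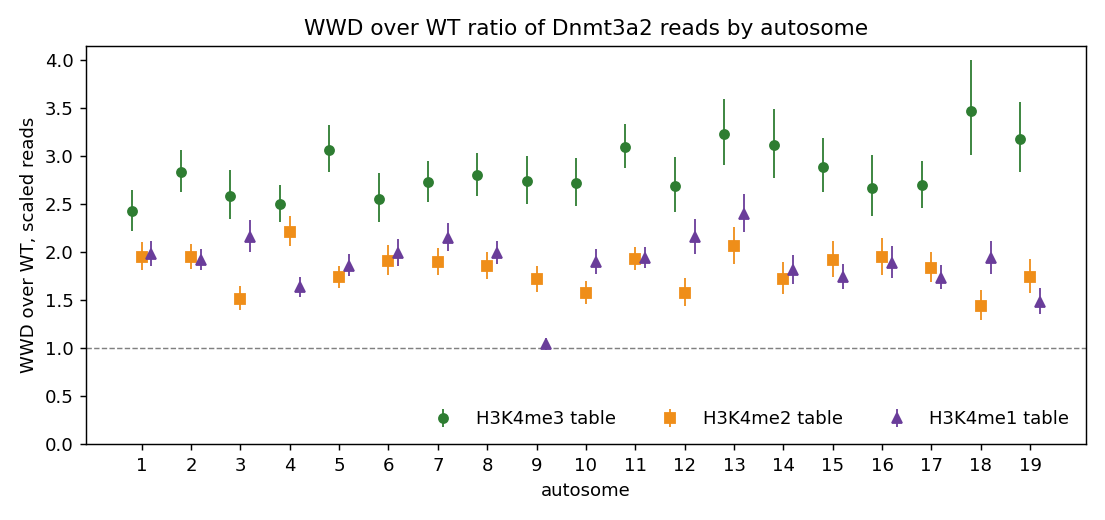
WWD over WT ratio of scaled Dnmt3a2 reads on each of the 19 autosomes (horizontal axis) for the 3 tables, with exact 95% counting intervals as bars and a dashed line at 1. All H3K4me3-table points (2.43 to 3.47) lie above all points of the other tables (1.04 to 2.40).

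Solitary and clustered regions differed little. H3K4me3 regions with no other region of the table within 5 kb had a ratio of 2.65 (2.57 to 2.74), and those with 1 to 4 others had 2.90 (2.82 to 2.98). Both libraries reached solitary regions more often, at 27.6% against 24.4% in WWD and 11.3% against 9.14% in WT. The 94 regions with 5 or more neighbours had a ratio of 6.40 from 46 and 10 reads (3.19 to 14.2), which was 2.60 when neighbours within 20 kb were counted. At H3K4me2 regions the ratio was 1.86 for solitary and 1.77 for clustered regions, and at H3K4me1 regions 1.77 and 1.82.

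Runs of neighbouring regions show places where several regions each held a read, which many reads at a single region do not. Regions of a table with gaps of up to 1 kb were joined, and runs of at least 3 were kept. Of 2243 runs in the H3K4me3 table, 1017 (45.3%) had more regions with a read in WWD, 232 (10.3%) had more in WT and the other 994 were equal, 761 of them without a read in either library. At least 2 regions of the run held a read in 361 runs for WWD and 69 for WT. How many such runs the shares of single regions alone would give was not computed. These counts thus do not show that neighbours were reached together. The H3K4me2 table had 382 runs, of which 170 had more in WWD and 62 more in WT. The H3K4me1 table had 132 runs, with 56 and 29.

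The strongest runs are named by their mm9 positions, since the files pair no region with a gene. Chromosome 4, 48695040 to 48696570, held WWD reads in each of its 5 regions (3, 7, 7, 8 and 3 reads) and no WT read, yet it had 0 H3K4me3 reads in WT and in WWD cells. The next 4 runs were marked by H3K4me3 in both cell lines. On chromosome 13, 74754578 to 74755426, WWD had 3, 9 and 6 reads and WT none, with 485 H3K4me3 reads in WT cells and 673 in WWD cells. Chromosome 8, 28370381 to 28372061, had 4, 10 and 2 WWD reads and no WT read, with 415 and 630 H3K4me3 reads. Chromosome 8, 36028016 to 36029100, had 3, 4 and 7 WWD reads and no WT read. On chromosome 4, 104039459 to 104041286, 3 of 4 regions held WWD reads, 16 in all, and none held a WT read.

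The 5 strongest runs in favour of WT had a read in 2 or 3 regions, against 3 to 5 in those of WWD. Runs were ranked by the difference in regions with a read, and WWD had reads at more regions. That contrast thus follows from the ranking and is no separate result. The first WT run, chromosome 5, 74488727 to 74490544, had WT reads in 3 of 4 regions (6, 4 and 1) and no WWD read. It had 212 H3K4me3 reads in WT cells and 279 in WWD cells. Chromosome 4, 82969131 to 82970486, had 4, 2 and 2 WT reads and no WWD read at strong H3K4me3 (324 and 642 reads). Chromosome 2, 166571599 to 166572608, had 3, 1 and 4 WT reads where H3K4me3 was weak, with 8 and 20 reads.

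In the H3K4me2 table, chromosome 11, 117685806 to 117687517, had 2, 7 and 4 WWD reads and no WT read, and chromosome 9, 70267897 to 70269725, had 30 WT reads in 2 of 4 regions and no WWD read. In the H3K4me1 table, chromosome 15, 95632588 to 95633790, had 1, 6 and 6 WWD reads and no WT read. Chromosome 17, 32587443 to 32588695, had 31 WT reads over its 3 regions and 1 WWD read. These runs are the extremes of many, no error over cultures can be given for them, and they serve as examples.

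Among single regions of the H3K4me3 table, the 3 highest in both libraries had no common direction. The first of them, chromosome 19, 61275611 to 61275710, held 48 WWD and 21 WT reads, a ratio of 3.18 (1.87 to 5.59), along with 2183 H3K4me3 reads in WT cells and 2918 in WWD cells. Chromosome 8, 122985931 to 122986030, held 11 WWD and 15 WT reads, a scaled ratio of 1.02 (0.424 to 2.38), with 0 and 1 H3K4me3 reads. Chromosome 9, 21042794 to 21042893, held 9 and 18, a ratio of 0.696 (0.275 to 1.63), with 80 and 140 H3K4me3 reads. Reads in 1 library alone went as high as 24 in WWD and 22 in WT at H3K4me3 regions. In the H3K4me2 table chromosome 6, 91928450 to 91928549, had 19 WWD reads and no WT read, and chromosome 8, 87981406 to 87981505, had 32 WT reads and no WWD read. In the H3K4me1 table chromosome 11, 84955290 to 84955389, had 27 WWD reads and no WT read, and chromosome 4, 134375453 to 134375552, had 26 WT reads and no WWD read. With the empty library set to a floor of 3 reads, these differences were 8.81-fold and 12.5-fold higher in WWD and 7.67-fold and 6.23-fold lower. Regions with reads in both libraries, where no floor was set, had larger differences in favour of WT. Chromosome 3, 152364630 to 152364729, of the H3K4me2 table held 2 WWD and 64 WT reads, 23.0-fold lower in WWD. Chromosome 17, 36621706 to 36621805, of the H3K4me1 table held 1 and 57, 41.0-fold lower in WWD. These regions are among the extremes of each table, and reads came in clumps. The values are thus examples and not lower bounds.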

How the data were processed

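Dnmt3a2 (FLAG) and H3K4me3 ChIP-seq of Dnmt TKO cells was analysed. Per the submitters' processing notes, Bowtie was the aligner and mm9 the build. The sources used here give neither its version nor how regions were called. The deposited values are log2 of 1 plus scaled reads, and per the file headers reads were counted in 100 bp and scaled to an effective total. A random amount below 1 in each value was read from the values. Whole reads were recovered as the whole part of (2 to the power of the value, minus 1) over effective total by total. The recovery was run on data simulated in this same form. That checked the calculation only. It could not test whether the deposited values have this form, which was inferred.

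Dnmt3a2_WWD was set against Dnmt3a2_WT over all rows, with no filter. H3K4me3 columns exist in 1 table, so levels were classed there only. 2 columns of no listed sample were not used. Named places were runs by difference in regions with a read (5 each way at H3K4me3, 3 elsewhere), and by table the 3 regions highest in both libraries and 3 each way by log2 ratio with 1 read per 10000000 added; examples are printed. Members, lists and rules were chosen with earlier results of these data known. Alternatives covered scaling, caps, filters, pseudocounts, distances and gaps. Base composition was not analysed, as no mm9 genome was used. Python 3.11.15, numpy 2.4.6, pandas 2.3.3, scipy 1.17.1 and matplotlib 3.10.9 were used.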

Additional observations from a re-analysis of the deposited data

How the results depend on the processing

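The 57 results were recomputed to give 139 alternative values. No ratio crossed 1 against its first value (0 reversals). Counts and percentages among the results have no such point to cross, so this covers the ratios only. 59 values lay within the counting interval, 1 SD over autosomes or 1.5-fold of a count, and 80 lay outside. Splits of the H3K4me3 classes above 20, distance classes, unscaled reads, equal depth and left-out regions were added after the data were seen. No paired analysis was possible because each construct had 1 column, and leaving out samples was not possible for the same reason. Thin cover per region, with most regions at 0 reads, limits what any single region can show.

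Values below are in the order H3K4me3, H3K4me2 and H3K4me1 table. The WWD over WT ratio was 3.58, 2.55 and 2.42 with reads capped at 1 per region, 1.71, 1.21 and 1.24 in regions reached in 2 or more of the 3 libraries, 2.69, 1.73 and 1.73 with at least 2 reads summed, 2.03, 1.64 and 1.67 with the random amount kept, and 2.01, 1.31 and 1.29 without scaling. At H3K4me1 regions the ratio was also 1.91 with a cap of 20 reads, 1.83 on autosomes and 1.87 without the region of most WT reads. A cap at 1 makes the ratio that of the shares of regions with a read, scaled by library totals. Such shares do not grow in proportion to depth. WT had a read at 9.89% of H3K4me3 regions, and would have one at 9.09% at the depth of WWD. Ratios capped at 1 are thus raised by this scaling.

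Regions with at least 2 reads made up 18.1, 20.1 and 29.4% in WWD and 7.50, 12.4 and 18.4% in WT, and with at least 3 reads 13.2, 14.4 and 22.3% and 6.37, 10.3 and 15.5%. With WT at the depth of WWD, 9.09, 14.8 and 21.2% of regions had a WT read. Regions past 2-fold higher in WWD numbered 2664, 2498 and 3265 with 2 reads added and 807, 1033 and 1451 with reads in 2 libraries; lower ones numbered 898, 1264 and 1512 and 264, 631 and 760. These settings test fewer regions or shrink ratios by construction.

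With gaps of up to 500 bp, 534, 24 and 15 runs had more regions with a read in WWD and 111, 9 and 6 more in WT. With gaps of up to 5 kb, 457 and 260 had more in WWD and 154 and 109 more in WT at H3K4me2 and H3K4me1 regions. Over autosomes, reads capped at 1 gave a lowest ratio of 2.998, 2.07 and 2.18, a median of 3.65, 2.55 and 2.43 and a highest of 4.31, 2.92 and 2.71. H3K4me3 regions with 1 to 4 others within 1 kb had 2.99, and those with 5 to 14 within 20 kb 2.60. At H3K4me1 regions, neighbours within 20 kb gave 1.62 for none and 1.88 for 1 to 4.

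By H3K4me3 level, the cap at 1 read gave 2.82, 3.01, 2.62, 3.32 and 4.43 from 0 reads to over 20. With levels from WT cells alone the class up to 1 had 1.94 and that from 5 to 20 had 2.66; with WWD cells alone the classes up to 1, 1 to 5 and 5 to 20 had 2.02, 2.69 and 2.43. Regions within 2-fold in H3K4me3 had 2.87 and those 2-fold lower in WWD cells 2.79 with 4 reads added. Ratios capped at 1 read differ from the others in part through the scaling of shares described above. The cause of the other shifts was not tested.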

Other observations

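Mitochondrial DNA, which carries no histones, had a summed ratio below 1, unlike the autosomes and chromosome X in the same table. Its 6 regions, all in the H3K4me2 table, held 107 WWD reads and 216 WT reads, a scaled ratio of 0.689 (exact counting interval 0.542 to 0.873). By region WWD ranged from 11 to 32 reads and WT from 6 to 84, and WWD was the higher one after scaling in 3 of the 6. Without the region of 84 WT reads the ratio was 0.791, for which no interval was computed.

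The 3 regions of the H3K4me1 table that were highest in both libraries held more reads in WT than in WWD. At H3K4me1 regions the 3 highest in both libraries, by the lower of the 2 scaled values, were chromosome X, 73844337 to 73844436, with 71 WWD and 207 WT reads, chromosome 9, 3015676 to 3015775, with 52 and 1246, and chromosome 19, 61300306 to 61300405, with 28 and 135. Their ratios were 0.477 (0.359 to 0.628), 0.0581 (0.0431 to 0.0766) and 0.289 (0.185 to 0.436). R held 180, 1180 and 186 reads there. In the H3K4me2 table, chromosome 11, 3077607 to 3077706, held 48 and 63 reads, a ratio of 1.06 (0.713 to 1.57).

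Sex chromosomes differed between tables. Chromosome X had a ratio of 2.56 at H3K4me3 regions (2.16 to 3.03) and 2.22 at H3K4me2 regions (1.84 to 2.69), close to the autosomes, but 0.669 at its 215 H3K4me1 regions (0.572 to 0.780), and 0.797 there without the region of 207 WT reads. By share of regions with a read, WWD was higher on X also at H3K4me1 regions, with 21.4% against 16.7% in WT. The 16 chromosome Y regions of the H3K4me1 table held 61 WWD and 347 WT reads. WT had a read at 13 of them and WWD at 9.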
